A study of Macaca fascicularis with 80 samples.

Results

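Blood taken on day 7 was compared with blood taken on day 4 from the same 8 cynomolgus macaques (Macaca fascicularis), that is, 96 h against 24 h after a second dose of IL-15/IL-15Ra. The 16 libraries were chosen by the day and animal number in their names, out of 80 libraries from 10 days. By both days each animal had been given 5 µg/kg (day 0), then 10 µg/kg (day 3). Day 7 libraries carry the 10 µg/kg dose in the labels and were therefore read as drawn ahead of the 15 µg/kg given that day, which the labels do not state. There were 4 females and 4 males, whole blood went into PAXgene tubes, and bulk RNA was sequenced. No undosed animals were analysed, so time, repeated bleeding and the earlier dose run along with the days compared.

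IL-15 is a cytokine of the common gamma chain family. It is presented bound to its receptor alpha chain to cells that carry the beta and gamma chains, chiefly natural killer cells and memory CD8 T cells, and it drives their survival, division and cytotoxic programme. Doses of such cytokines are known to take lymphocytes out of the circulation for a while, after which blood counts rise again. Whole-blood RNA mixes all these cells with granulocytes, monocytes, platelets and red cells, so fewer cells of a type and less RNA per cell cannot be told apart. Gene identifiers come without names in the sources used here, so cell types and pathways could not be assigned, marker genes of blood could not be checked, and the results below are given by groups of genes and by 4 identifiers.

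Libraries held 18.1 M to 51.45 M counts on day 7 and 21.54 M to 28.13 M on day 4. One library stood apart on each day. The day 4 library of male 39102 had the lowest scaling factor of the 16, 0.657, where the others ran from 0.839 to 1.27, and the day 7 library of female 39097 was the deepest. The day 7 library of female 39095 carries a library tag of its own, while the other 15 share one tag. After subtracting day means, the day 7 and day 4 libraries of 1 animal had a median r of 0.454 across genes, but only 0.0271 in 39102 and 0.0686 in male 39103. The count of called genes is therefore also given without each of these animals.

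Between 24 h and 96 h after the second dose, edgeR on all 8 animals called more genes higher than lower. The called rises were the larger changes. The excess of rises was not kept by limma voom with sample weights (714 higher, 744 lower). Of 16054 genes tested, 352 (2.19%) were called higher on day 7 and 142 (0.885%) lower at an adjusted p under 0.05, together 494 genes or 3.08% of those tested, with 3087 genes at an unadjusted p under 0.05. The median log2 fold change was 1.27 among genes that rose and -0.78 among genes that fell, against 0.03 over all genes. These 2 medians cover called genes only, and a larger SE asks for a larger change. With genes in 4 bands by level, the median SE was 0.244 in the second band and 0.131 in the highest. The part of this in the difference was not tested. More than 2-fold changes numbered 231 up and 44 down, and more than 4-fold changes 85 up and 3 down. In 8 of 8 animals 314 of the 352 were higher (681 of all genes tested, 4.24%), and 117 of the 142 were lower (384 of all genes, 2.39%). The 8 values of day 7 lay wholly above the 8 of day 4 for 62 of the genes that rose, against 70 of all genes tested (0.436%). They lay wholly below for 4 of the genes that fell, against 7 of all genes tested (0.0436%).

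The 352 genes that rose took 1.12% to 2.96% of all counts on day 7 (median 2.35%), against 0.461% to 1.50% on day 4 (median 0.959%). The 142 that fell took 0.961% to 1.92% on day 7 (median 1.14%), against 1.63% to 3.55% on day 4 (median 2.26%). As the same libraries chose both groups, the direction of these shifts follows from the choice. Genes that fell were the more abundant ones, with a median average level of 6.08 log2 CPM (CPM, counts scaled to library size) against 3.62 for genes that rose and 3.63 for all genes tested.

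The count of 494 rested on the set of animals. Leaving out 39103 gave 1129 calls. The count was 128 without 39100, 185 without 39090, 195 without 39095, 282 without 39104 and 291 without 39097. Leaving out 39102 gave 692 calls, 421 higher and 271 lower. Those 195 genes are also the value within 1 library tag. Dropping 39102 and 39103 together, a choice made after seeing the data, gave 2241 genes, 950 higher and 1291 lower, 490 of which were among the 494, so the excess of rising genes was not seen in the other 6 animals. DESeq2 called 876 higher and 650 lower, which included 493 of the 494, while limma voom with sample weights called 714 higher and 744 lower. The count in each direction thus depended on the fit.

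**Figure D1:**
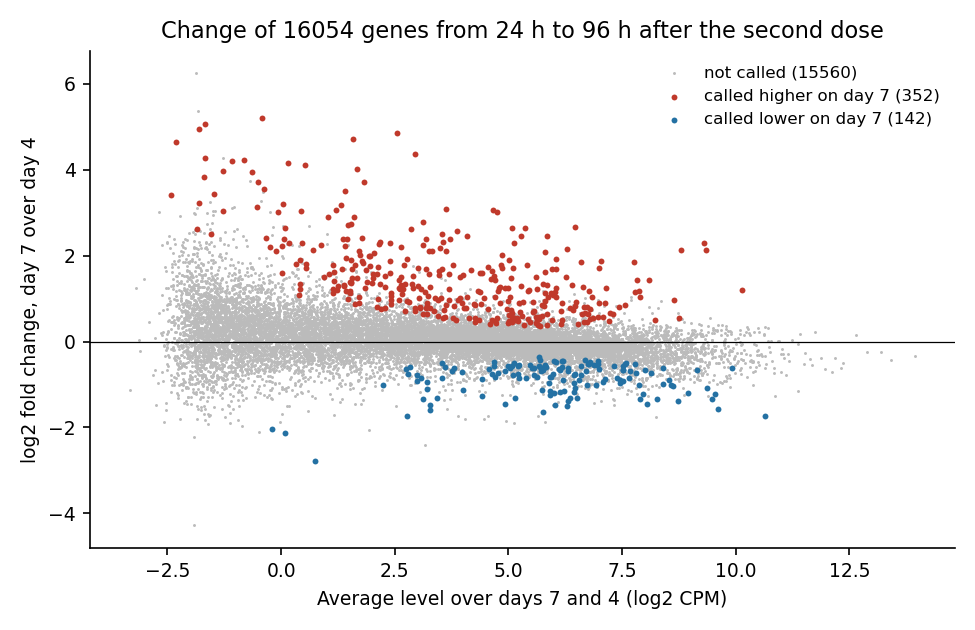
Each point is a gene, placed by its average level over days 7 and 4 (log2 CPM) and its log2 fold change, day 7 over day 4. Red points are the 352 genes called higher on day 7 and blue points the 142 called lower; red points reach further from 0, with 85 beyond 4-fold against 3 blue ones.

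The 2 largest and the 2 smallest fold changes were taken among genes called, at a mean of at least 2 log2 CPM and with 1 direction in all 8 animals. These conditions left 214 genes that rose and 113 that fell, and the direction in every animal is thus part of the choice. ENSMFAG00000050480 ranged from 4.53 to 6.29 log2 CPM on day 7 (median 5.42), against 0.92 to 4.04 on day 4 (median 2.21). No day 7 value fell into the day 4 range. The step was smallest in 39095, where the gene was already at 4.04 on day 4, and largest in 39090, which had the lowest day 4 value. It rose 8.38-fold (log2 3.07, SE 0.40, adjusted p = 0.00307), and this call held without any 1 animal (adjusted p 0.00286 to 0.0169).

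ENSMFAG00000033092 ranged from 2.09 to 5.84 log2 CPM on day 7 (median 3.95), against -1.83 to 2.18 on day 4 (median 1.50). Only the day 7 library of 39098 lay within the day 4 range. It rose 8.49-fold (log2 3.09, SE 0.52, adjusted p = 0.0121), with as few as 5 counts on day 4, and the call was lost without 39095 or without 39100 (adjusted p = 0.0534 and 0.0561).

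ENSMFAG00000044493 ranged from -0.29 to 2.79 log2 CPM on day 7 (median 1.61), against 2.08 to 4.21 on day 4 (median 3.32). Females 39090, 39097 and 39098 stayed within the day 4 range on day 7. Its log2 fold change was -1.74 (SE 0.27, adjusted p = 0.00711), between -1.92 and -1.55 without any 1 animal, and the call was lost without the animal block (adjusted p = 0.126).

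ENSMFAG00000020136 was the most abundant of the 4, at 7.67 to 10.91 log2 CPM on day 7 (median 9.25), against 9.42 to 12.13 on day 4 (median 11.08). Days overlapped, with 4 of the 8 day 7 libraries inside the day 4 range, and in 39097 the difference was only -0.25. The log2 fold change was -1.74 (SE 0.32, adjusted p = 0.0163). This call was lost without 39090, 39095 or 39100 (adjusted p = 0.058, 0.0616 and 0.0689) and without the animal block (adjusted p = 0.132). Whether any of the 4 genes shares reads with near-identical copies could not be traced.

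**Figure D2:**
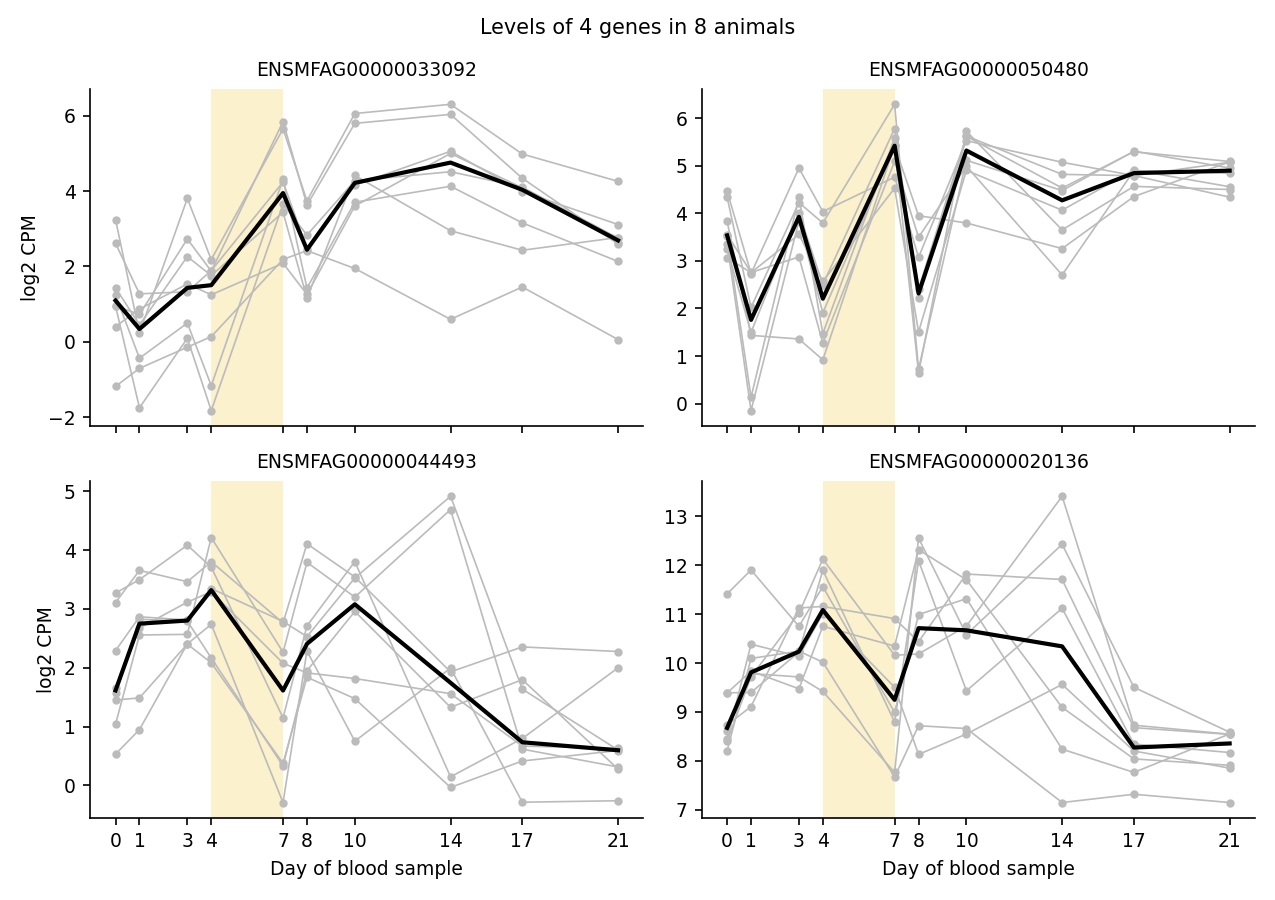
Levels (log2 CPM) of the 4 genes by day of blood sample; grey lines are the 8 animals, the black line is their median, and the shaded span runs from day 4 to day 7. The median of ENSMFAG00000050480 climbs to 5.42 at the end of the span and that of ENSMFAG00000020136 drops to 9.25.

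Animals differed in how far they moved. To measure an animal with genes it did not help choose, the fit was repeated on the other 7 animals and the mean log2 change of the genes called there was read in the animal left out. Genes called higher in the others (99 to 621 of them) were higher on day 7 in 8 of 8 animals, by a mean of 1.55 ± 0.78 (SD, n = 8). The mean was highest for 39090 (2.85, 143 genes) and 39100 (2.31, 99 genes). It was lowest for 39103 (0.49, 621 genes) and 39104 (0.94, 217 genes). As each animal was read on another list, these means do not rank the animals. On the 352 genes chosen with all 8 animals, the mean rise ran from 0.91 in 39104 to 2.05 in 39090, with 1.04 in 39103. Genes called lower (29 to 508) changed by -0.81 ± 0.53, between -1.32 in 39095 and -0.25 in 39098 where they fell, and stood at 0.07 in 39103. In that male 61.2% of the 508 genes called lower in the others were higher on day 7. In the other animals it was 0% to 20.9%, on shorter lists of 29 to 271 genes, so these shares are not like for like. On the 142 genes chosen with all 8 animals, 39103 changed by a mean of -0.74. The other animals ran from -1.32 in 39102 to -0.39 in 39098.

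**Figure D3:**
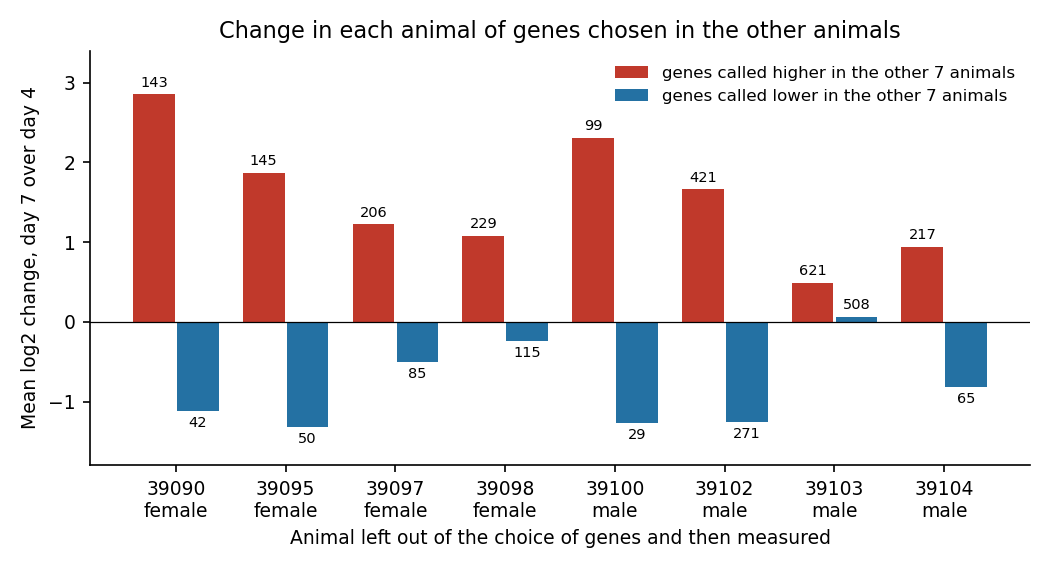
Bars give the mean log2 change, day 7 over day 4, in the animal named below, of genes called higher (red) or lower (blue) in the other 7 animals; figures at the bars are the numbers of genes. Red bars are above 0 in all 8 animals, and the blue bar of 39103 is at 0.07.

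Over all 16054 genes the root mean square (RMS) of the log2 change was 1.57 in 39102 and 0.66 to 0.97 in the other 7. In 39102, 7227 genes changed by more than 2-fold between the libraries, against 1824 to 3433 in the others. The changes of 2 animals correlated over genes at a median r of 0.205 over 28 pairs (-0.38 to 0.471), or 0.456 over the 10302 genes above 2 log2 CPM. No 2 animals share a library, but all share the day and the scaling. The lowest r was between 39102 and 39103, and 39103 had a median r of -0.0302 with the other animals.

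A nearing of the whole profile to day 0 was not shown. The RMS distance of libraries to day 0 of the same animal was 0.788 ± 0.087 on day 7 and 0.870 ± 0.280 on day 4 (SD, n = 8 each), lower on day 7 in 4 of 8 animals (exact two-sided sign-flip permutation test, p = 0.625 and adjusted p = 0.625 over 2 tests). The mean difference of -0.08 rested on 39102, whose distance was 0.767 on day 7 and 1.54 on day 4, and became 0.02 without that animal. The 10 most abundant genes took 7.35% ± 1.01 of counts on day 7 and 8.23% ± 1.25 on day 4, a smaller share in 7 of 8 animals that did not pass the exact test (p = 0.0703, adjusted p = 0.141). Male 39103 was the exception, with 8.76% on day 7 and 7.71% on day 4. Without it the adjusted p was 0.0312 by the exact test. Taking out the only rise leaves 1 sign, which fixes the least p that test can give, so no conclusion was drawn. With any 1 of the other animals left out instead, the adjusted p by the same test was 0.156 to 0.281.

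The called genes were then followed over all 10 days as the mean log2 difference from the animal's own day 0, given as a description, since days 4 and 7 chose them. The 352 genes that rose stood at 0.81 ± 0.35 (SD, n = 8) on day 7, above day 0 in 8 of 8 animals, and at -0.61 ± 0.39 on day 4, below day 0 in 8 of 8. The choice on days 7 and 4 enters both values. In animals left out of the choice, genes called higher in the other 7 were 0.92 ± 0.51 above day 0 on day 7, in 8 of 8 animals. On days that had no part in the choice, the mean of the 352 genes also rose from day 1 to day 3 and from day 8 to day 10. These genes were at -0.71 ± 0.37 on day 1, at 0.01 ± 0.37 on day 3, at -0.54 ± 0.47 on day 8 and at 0.66 ± 0.40 on day 10. The rise to day 3 only reached day 0, with 5 animals above and 3 below. It was absent in 39090, at -0.70 on day 1 and -0.76 on day 3. On day 14 animals split 4 and 4 around day 0 (0.36 ± 0.65). Day 14 libraries of 39090, 39095, 39097, 39098 and 39100 carry another run tag than the day 0 libraries. So do the day 10 libraries of 39102, 39103 and 39104. The part of the run in these values was not tested. The 352 genes were above day 0 again in 8 of 8 animals on days 17 and 21, by 0.64 ± 0.25 and 0.55 ± 0.13. The mean over all genes stayed between -0.06 and 0.01 on all days.

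The 142 genes that fell had another course. They stood at -0.16 ± 0.44 from day 0 on day 7, with 4 animals above and 4 below, and at 0.72 ± 0.38 on day 4, above in 8 of 8. They had been above day 0 in 8 of 8 animals on day 1 (0.38 ± 0.21) and on day 3 (0.41 ± 0.23), with no return between these days. After the third dose they were at 0.55 ± 0.40 on day 8 and 0.27 ± 0.33 on day 10, and they ended below day 0, at -0.38 ± 0.34 on day 17 and -0.39 ± 0.17 on day 21, lower in 7 and 8 of 8 animals.

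**Figure D4:**
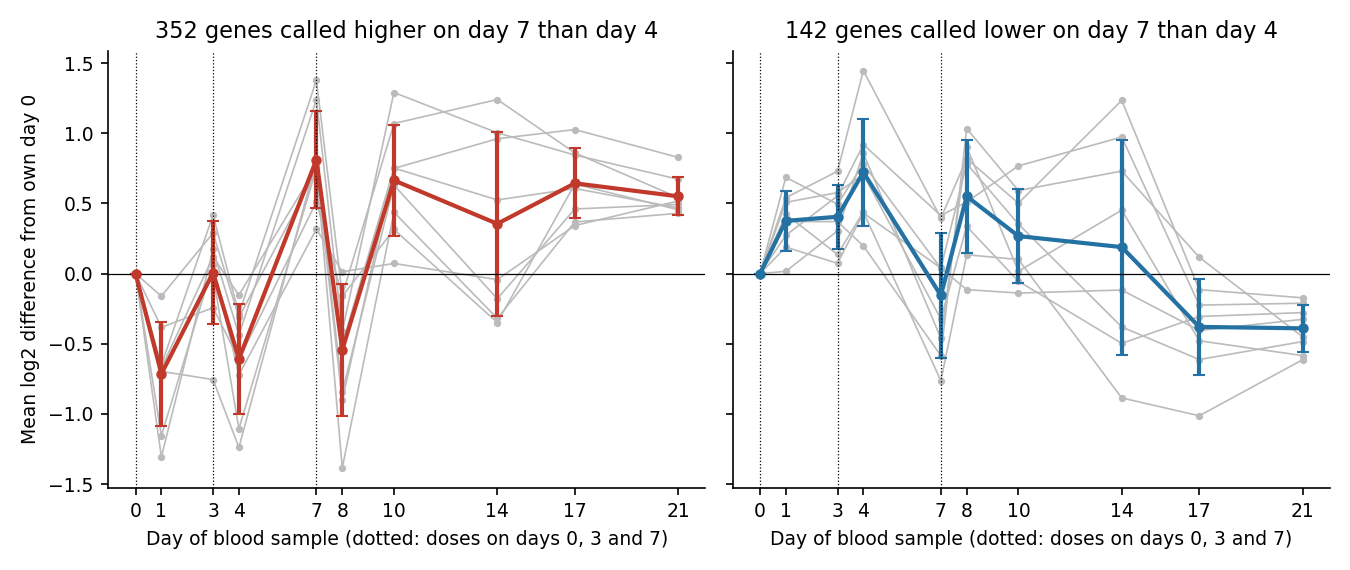
Mean log2 difference from the animal's own day 0, by day of blood sample, for genes called higher (left) or lower (right) on day 7 than on day 4. Grey lines are the 8 animals, coloured lines their mean with SD, and dotted lines mark doses; the left group dips on days 1, 4 and 8 and stands at 0.81 on day 7, whereas the right group stays above 0 from day 1 to day 4.

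The same genes were looked up in the intervals that followed the first dose (day 3 over day 1) and the third (day 10 over day 8), which share no library with days 7 and 4. Both ran from 24 h to 72 h, not to 96 h. Many of the genes that rose after the second dose were called higher after the others too. In all, 967 genes (6.02%) were called for day 3 over day 1 and 1789 (11.1%) for day 10 over day 8. Of the 352, 114 (32.4%) were called higher on day 3 than on day 1, where 3.32% of all genes were, and 257 were called higher on day 10 than on day 8, where 5.64% of all genes were. None was called lower in either interval, by edgeR. Their median log2 fold change was 0.56 after the first dose and 1.16 after the third, against -0.004 and 0.04 over all genes. Called higher after all 3 doses were 106 genes.

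The 142 genes lower on day 7 were split after the first dose. Of them, 17 were called lower on day 3 than on day 1 and 14 (9.86%) higher, where 2.7% and 3.32% of all genes were, and their median was 0.02. Day 10 was called lower than day 8 for 26 of them (18.3%, against 5.51% of all genes) and higher for 1, with a median of -0.26. Only 12 were called lower after all 3 doses.

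Seen from the other side, the 905 genes called higher on day 10 than on day 8 had a median log2 change of 0.53, day 7 over day 4, and 95.6% of them were positive, against 53.3% of all genes tested. The 884 called lower had a median of -0.40 with 2.04% positive. Of the 533 genes called higher on day 3 than on day 1, 69.2% were positive for day 7 over day 4 (median 0.20), with 114 called higher and 14 called lower on day 7. Of the 434 called lower on day 3, 11.5% were positive (median -0.30).

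These shares changed with the animals. With 1 animal left out of all comparisons, the share of rising genes called higher again ran from 4.35% (without 39103) to 70.6% (without 39090) after the first dose and from 22.1% (without 39095) to 86.9% (without 39097) after the third. The share over all genes tested moved too, being 0.959%, 5.33%, 0.355% and 8.08% in the same 4 fits. The median of the rising genes stayed at or above 0.34 after the first dose and 0.91 after the third. For falling genes the median ran from -0.16 to 0.16 after the first dose and from -0.48 to -0.16 after the third. The lists themselves were as unsteady. The 967 calls of day 3 over day 1 became 1805 without 39090 and 598 without 39102. They fell to 474 when 39104 was left out, to 354 for 39095, to 338 for 39098, to 272 for 39100 and to 241 for 39103. The 1789 of day 10 over day 8 became 999 without 39102, 758 without 39090, 704 without 39100, 437 without 39104, 358 without 39098 and 78 without 39095. Day 10 libraries of 39102, 39103 and 39104 carry another run tag; the 5 animals without it gave 577 genes higher and 817 lower, an alternative chosen after seeing the data.

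**Figure D5:**
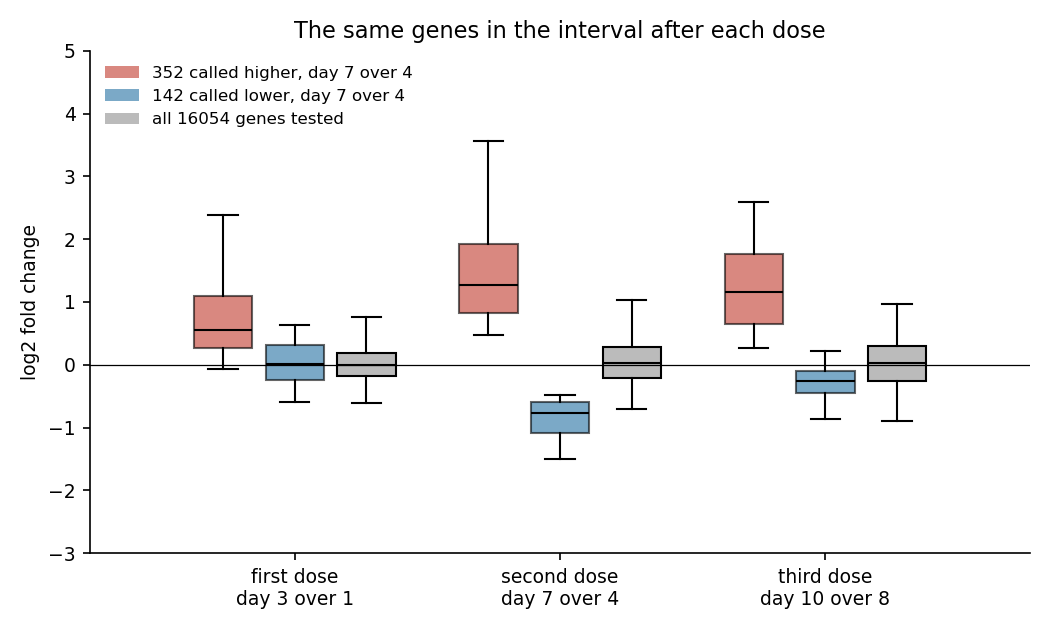
Log2 fold changes in the interval after each dose for genes called higher (red) or lower (blue) on day 7 than on day 4, and for all 16054 genes tested (grey); boxes are quartiles with the median and whiskers run from the 5th to the 95th percentile. Red medians are 0.56, 1.27 and 1.16 from the first to the third dose, and blue medians 0.02, -0.78 and -0.26.

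Whether the interval after the second dose differed from the others was tested directly. Against the first, 114 genes differed (0.71% of those tested), 21 of them changing more upward and 93 more downward after the second dose. Of the 142 falling genes, 42 (29.6%) were among the 93 (0.579% of all genes), and of the 352 rising genes 15 (4.26%) were among the 21 (0.131% of all genes). Days 7 and 4 enter both the choice and this test, so these shares are raised by the choice. ENSMFAG00000044493 was one of the 42. Its log2 change was -1.74 after the second dose and 0.37 after the first (difference -2.05, SE 0.40, adjusted p = 0.0162). That gene was chosen by its change between days 7 and 4, which enters the difference. Differences of 1.80 for ENSMFAG00000033092 (SE 0.59, adjusted p = 0.175) and 1.18 for ENSMFAG00000050480 (SE 0.58, adjusted p = 0.473) missed the threshold. So did -1.73 for ENSMFAG00000020136 (SE 0.54, adjusted p = 0.150). The count of 114 was 56 without 39095, 35 without 39104 and 0 without 39100, where 1331 genes had an unadjusted p under 0.05.

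Against the interval after the third dose, edgeR called 1 gene (0.00623%), while 869 had an unadjusted p under 0.05, and DESeq2 called 3. It is one of the 142 falling genes, with a more positive change after the third dose, and lies outside the 4 identifiers printed. That call was absent when any of 39090, 39095, 39097, 39100, 39102 or 39104 was left out, and 2 genes were called without 39103. A missed threshold does not show that both intervals were alike. Changes of the 4 named genes for day 10 over day 8 were 1.93 (SE 0.33, adjusted p = 0.0156) for ENSMFAG00000033092 and 2.94 (SE 0.52, adjusted p = 0.0162) for ENSMFAG00000050480. They were 0.00 (SE 0.31, adjusted p = 0.995) for ENSMFAG00000044493 and -0.28 (SE 0.42, adjusted p = 0.693) for ENSMFAG00000020136.

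Day 7 was also set against day 3, which carries the first dose in the labels and was read as drawn ahead of the second. It shares the day 7 libraries with the main comparison. These libraries also helped choose the called and the named genes, so differences of those genes from day 3 are favoured by the choice. Day 7 was higher for 66 genes and lower for 25, 0.567% of those tested. Of the 66, 56 were among the 352 rising genes, and of the 25, 14 were among the 142 falling genes. ENSMFAG00000033092 was 2.44 higher on the log2 scale (SE 0.34, adjusted p = 0.00931) and ENSMFAG00000050480 1.65 higher (SE 0.32, adjusted p = 0.0472). ENSMFAG00000044493 and ENSMFAG00000020136 had log2 differences of -1.49 and -1.08 that missed the threshold (SE 0.34 and 0.31, adjusted p = 0.0751 and 0.143). The count of 91 was 365 without 39103, 37 without 39104, 25 without 39095, 19 without 39097, 18 without 39100 and 12 without 39102.

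No gene had a change between days 7 and 4 that differed between females and males by edgeR (122 had an unadjusted p under 0.05) or by DESeq2 (273). With 4 animals of each sex, differences between the sexes were hard to detect. Among the 4 named genes the female minus male difference in log2 change ran from -0.62 (SE 0.78) to 1.53 (SE 0.96).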

How the data were processed

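The authors deposited gene counts, whole numbers of reads per gene without normalization, in 2 tables of the same 80 libraries. Which aligner, counter, build and strandedness were used is not given in the sources used here. Per the labels' protocols, RNA came from the RNAdvance Blood kit and libraries from KAPA HyperPrep mRNA reagents. The main table lists 38550 identifiers and the second 35432, and 0 of either matched the RefSeq gene table, so the 14 gene lists and cell type markers that had been planned by symbol could not be run.

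Genes were kept by filterByExpr grouped by day over all libraries (16054, 41.6%), scaled with TMM factors and tested with edgeR 4.0.16 (glmQLFit, glmQLFTest) in R 4.3.3, each comparison fitted separately, with a block for the animal. Called means a Benjamini-Hochberg adjusted p under 0.05 over all genes. Log2 CPM had a prior count of 2. Pairing comes from the animal numbers in the labels; between days 7 and 4 the correlation of deviations was 0.0271 to 0.701 in the same animal (median -0.0631 between different animals), and 6 of 8 day 7 libraries were closest to their own animal. Chi-square per degree of freedom was at least 39.5 between libraries within day 4 and within day 7, so none of these pairs were duplicates. Pairs across days and libraries of other days were not checked in this way.

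Library measures were tested by flipping signs exactly (256 flips, permutation p of 0.00781 at the least). Named genes were the 2 largest and the 2 smallest log2 fold changes among called genes with a mean of at least 2 log2 CPM and 1 direction in 8 animals. Alternatives were DESeq2 1.42.0, limma 3.58.1 (voom), other scaling, no filter, no block, 1 fit over all 80 libraries, the second table and leaving out animals. Procedures were tested on simulated data with known changes, which does not show how steady the calls are in these libraries. The comparison, lists and tests were chosen with earlier results of these data known.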

Additional observations from a re-analysis of the deposited data

Results flagged for a closer look

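Among 19 groups of 8 values checked, 3 held a value far from the others, and chance alone flags about 1 in 20 such groups. The day 4 library of 39102 lay at an RMS distance of 1.54 from the animal's day 0, with 0.928 the next highest. The RMS change from day 4 to day 7 was 1.57 in the same animal, with 0.965 the next. Both values rest on that 1 library, whose scaling factor was 0.657. The day 7 library of 39097 held 51.45 M counts, with 25.44 M the next. The change after the second dose differed from that after the first in 114 genes by a direct test, and the change after the third dose differed from that after the second in 1 gene. Hours between samples differ between these intervals (72 after the second dose, 48 after the others), so dose, order and time cannot be told apart.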

How the results depend on the processing

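Calls from day 4 to day 7 (494) numbered 1526 by DESeq2, 1458 by limma voom (714 higher, 744 lower), 2130 in 1 fit over all 80 libraries, 308 with library totals (248 higher, 60 lower), 291 without the animal with a library over 40 M counts and 204 with no replicate block (188 higher, 16 lower); without 39102 and 39103, an alternative chosen after seeing the data, they numbered 2241. Between 475 and 493 of the 494 were among the calls of the first 3. Library totals moved the median log2 change of all genes to 0.22. Counts stayed within 1.5 times with upper-quartile factors (514), no filter (606) and the second table (541). DESeq2 called 1876 genes for day 3 over day 1, 3514 for day 10 over day 8, 621 for day 7 over day 3, 384 for the second against the first interval and 3 for the third against the second. With library totals the last 4 were 2980 (2503 higher, 477 lower), 57, 39 and 0. No filter gave 1809 for day 3 over day 1 and 423 for day 7 over day 3. Without the block, that is, ignoring the pairing, counts were 25, 274, 3, 15 and 0 in the same order.

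Leaving out 1 animal at a time gave 128 to 1129 calls from day 4 to day 7, 241 to 1805 for day 3 over day 1, 78 to 2604 for day 10 over day 8, 12 to 365 for day 7 over day 3, 0 to 128 for the second against the first interval, 0 to 2 for the third against the second and 0 for the sexes in every case. The RMS distance difference ran from -0.116 to 0.016 (0.016 without 39102, turned in sign) and the share of the 10 most abundant genes from -1.15 to -0.508 percentage points. The cause of these shifts was not tested. Log2 fold changes of the 4 named genes kept their sign under the alternatives run on the main table, which the choice of genes with 1 direction in 8 animals largely fixes for left-out animals; they were not looked up in the second table. Precision was lowest in the 4014 genes of lowest level, with a median SE of 0.589 against 0.131 in the 4014 of highest level; the part of depth in this was not tested.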

Other observations

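Direction and level of the called genes were not evenly spread. With genes ranked by average level into 4 bands, in the lowest band (4014 genes, up to 0.59 log2 CPM) 40 genes were called higher and 2 lower on day 7 than on day 4. In the second band the numbers were 137 and 18, in the third 97 and 30, and in the highest band (4014 genes, from 5.64 log2 CPM) 78 and 92. Genes that rose were thus spread over all levels, with the largest number in the second band, and genes that fell lay mostly in the highest band. As the SE is larger at low levels, smaller changes there were less detectable in both directions.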
